A study of Mus musculus with 48 samples.

Results

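Genes for the proteins of the cytosolic ribosome were followed in RNA immunoprecipitation sequencing (RIP-seq) of 4T1 cells, a mouse mammary carcinoma line. Members were taken by symbol from the deposited count table: symbols starting with Rpl or Rps and a digit, and Rpsa, Rplp0, Rplp1 and Rplp2, without the Rps6k kinases and pseudogene symbols. This gave 77 of 26899 gene models. They comprise 42 genes of the large subunit, 27 of the small subunit, 7 paralog forms (Rpl3l, Rpl7l1, Rpl22l1, Rpl36al, Rpl39l, Rps27l and Rps27rt) and Rps19bp1, whose symbol fits the pattern although it encodes a partner of ribosomal protein S19 and of SIRT1 and not a ribosomal protein.

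The cells carried a control vector, FLAG-tagged human CNOT7, or FLAG-CNOT7 with the changes D40A, E247A/Y260A or M141R, all from a lentivirus with blasticidin selection, and each cDNA under a murine Pol2 promoter. CNOT7 is a deadenylase of the CCR4-NOT complex, which shortens the poly(A) tail of mRNAs. D40A lacks deadenylase activity, E247A/Y260A does not bind TOB1, and M141R does not bind CNOT1. From each lysate a part was kept as input, and the rest was precipitated with the anti-FLAG antibody M2, so that the RIP from vector cells, which hold no FLAG protein, is the background of the precipitation. The 5 constructs and 2 fractions make 10 groups of 5 libraries with the replicate numbers 6 to 10, except 4 libraries in each D40A group, which has no number 7 (48 libraries). The endogenous Cnot7 gene remained in all cells, no labels or methods say whether the numbers are separate transductions, and p-values therefore measure the spread between these libraries.

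Ribosomal proteins hold the ribosomal RNAs in shape and are needed in equal numbers, 1 copy per ribosome for nearly all of them. Their mRNAs are short, stable and among the most abundant in growing cells, and most start with a C followed by a run of pyrimidines, the 5′ terminal oligopyrimidine (TOP) tract, through which mTOR signalling and LARP1 control their translation. Each gene also has many processed pseudogenes, copies of the mRNA in the genome, and reads that match a gene and a copy cannot be placed with certainty.

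To show what such a start looks like, windows of 30 bases are given for 5 of the members, with the longest run of at least 8 letters that are all C or T and begin with C in capitals. Only bases from the RefSeq start on were searched, so pyrimidines before that start, or before the first C after it, stay in lower case. The windows come from the RefSeq start sites on GRCm38.p6 and lie around these starts. They are Rpl13a (chr7:45128720-45128749, minus strand), Rpl18 (chr7:45718066-45718095, plus strand), Rpl27a (chr7:109519190-109519219, plus strand), Rps15a (chr7:118116123-118116152, minus strand) and Rps18 (chr17:33955641-33955670, minus strand).
Rpl13a: acaagaCCTCCTCCTTTCCCaggcggctgc
Rpl18: aggccgCTCTTTCCCCgcccactccggcgc
Rpl27a: gctcctCCCTTTTCCCTTTCTgccaccgcc
Rps15a: gccatCTTCCCTCgccggtgagtgagtgtt
Rps18: ccgctCTCTCTTCCacaggaggcctacacg
RefSeq start windows were found for 58 members, and 35 of them (60.3%) held such a run in the first 50 transcribed bases on the sense strand. Among all 27025 genes with a window the share was 15.4%. It began at base 1 to 42 of the transcript, and in 12 of the 35 within the first 10 bases, so that most of these runs do not lie at the RefSeq start itself. The run is a match of letters and not a mapped start.

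Input libraries held 337861 to 826768 counts and RIP libraries 1305627 to 10719137. In RIP, 7 gene models, none of them a member, took 92.4 to 95.5% of all counts, against 0.614 to 5.75% in the inputs. Levels are therefore given as CPM, counts scaled to a common total, taken on the counts outside these 7 models, a remainder of only 87738 to 703214 counts in a RIP library. CNOT7 input replicate 10 stood apart from the other inputs: of 957 models with a median of at least 100 CPM in the other inputs, 251 (26.2%) were under 10% of that median, while each other input had 0 to 10 such models. Cnot7 itself gave 63 to 104 counts in vector inputs and 6 to 142 in CNOT7 inputs, and 2 to 9 and 3 to 10 in the RIPs, so the human FLAG cDNA cannot be read from the mouse gene. Of the epithelial markers, Epcam had 327 and Cdh1 329 counts over all inputs, whereas keratin genes Krt8, Krt18 and Krt19 had 29 to 56. Markers of other cell types (Ptprc, Cd3e, Lyz2, Emr1, Pecam1, Cdh5, Col1a2 and Pdgfra) summed to 1 to 30 counts in an input library, and to 0 to 50 in a RIP library. Pecam1, an endothelial marker, had 128 of their 216 input counts, more than any keratin gene, and 26 RIP counts. Ptprc had 11 input and 30 RIP counts, Cdh5 11 and 21, and Cd3e 1 and 3. Their part in the results was not tested.

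Members received few counts. Over the 24 inputs their counts summed to 17293, or 0.136% of all input counts, from 0.286% of the models in the table. The median member had 105 input counts over the 24 libraries together, above the median of 17 over all models, and 71 of the 77 members were above that median. In RIP the members summed to 2808 counts over 24 libraries, and 62.1% of the values of a member in a RIP library were 0, against 16.2% in the inputs. For 40 members no RIP library exceeded 3 counts, and 3 members had no RIP count at all (Rpl26, Rpl37a and Rpl13). No member was at 0 in all 48 libraries.

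Rps2, which encodes the small subunit protein uS5 near the mRNA entry channel, dominated the list. It had 6134 input counts, 35.5% of those of all members, and 1252 RIP counts, 44.6%. Rps28 followed with 1128 and 236 counts, then the large subunit genes Rpl5 (917 and 80), Rpl23 (823 and 90), Rpl13a (486 and 61) and Rpl3 (428 and 90). Rpl5 encodes the protein that binds 5S rRNA together with the product of Rpl11, which had 33 and 7 counts. These 6 genes with the most input counts made up 57.3% of the members' input counts. Among all models Rps2 ranked 260 by input counts, Rps28 1072 and Rpl5 1221.

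Taken per kilobase of annotated exon, Rps2 was at 259 CPM per kilobase in the inputs, Rps28 at 49.7, Rpl23 at 36.2, Rpl23a at 32.2 and the paralog Rps27l at 21.1. The median was 4.48 for large subunit genes and 4.31 for small subunit genes, with ranges of 0.0947 to 36.2 and 0.756 to 259. The proteins are needed in equal numbers, and these levels on the sense models were not equal. The lowest per kilobase were Rpl39l, a form known from testis, at 0.0781, Rpl13 at 0.0947, Rpl35a at 0.622, Rpl34 at 0.679 and Rpsa at 0.756. By raw input counts the lowest were Rpl39l with 1, Rpl13 with 2, Rps29 with 10, Rps27rt with 12 and Rpl36al with 15. Rpl13 lies within a longer model on the same strand, named Galnt2 in the table and Gm20388 in GENCODE, which had 1366287.

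Counts on the sense model were set beside those of models on the other strand. In GENCODE, 14 members share exon bases with an opposite model in the table, in 15 pairs. In 6 pairs the opposite model had more input counts than the member, and these opposite models had 2599 to 39976. Tlcd1, opposite to Rpl23a over 506 bases, had 39976 input counts against 345, and 3728 RIP counts against 43. Ccdc84, opposite to Rps25, had 5503 against 304, Nkiras1 4382 against 64 for Rpl15, Gm33051 3535 against 181 for Rpl22l1, Fam69a 2625 against 917 for Rpl5, and Tbc1d8 2599 against 73 for Rpl31. In the other 9 pairs the member had more: Rps2 had 6134 against 19 for Snhg9, and Rps28 1128 against 736 for Kank3. The library kit kept the strand of the RNA, the strand setting of the counting is not given in the sources used here, and the part of counting on these levels was not tested.

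**Figure D1:**
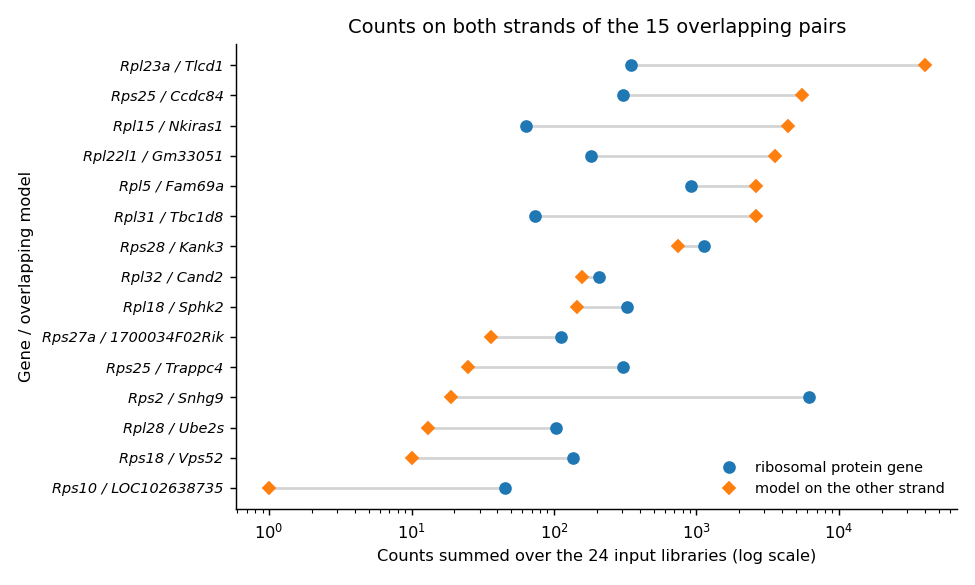
Input counts summed over 24 libraries (log axis) for each ribosomal protein gene (circles) and the model on the other strand that shares exon bases with it (diamonds), for all 15 pairs. The opposite model was higher in 6 pairs, from 2625 against 917 for Rpl5 to 39976 against 345 for Rpl23a, and lower in 9.

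The table holds further sequences of this family that the symbols do not reach. Of 78 canonical ribosomal protein genes listed, 69 were taken. Rpl12, Rpl35, Rpl39, Rps6, Rps20, Rps23 and Rps27 are in the table by identifier with no symbol, and together had 968 input and 126 RIP counts, with Rpl12 at 328 and 45. By GENCODE names, 81 models are pseudogenes of ribosomal proteins, 1 of them with a symbol, and all together had 277 input and 38 RIP counts. The highest, Rps2-ps9, had 27.

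The first comparison asked how the genes stood in the precipitate against the input. In CPM outside the 7 leading models, the members summed to 760 to 2088 in inputs (median 1246, n = 24) and to 412 to 1351 in RIPs (median 587, n = 24). RIP was lower than the input of the same construct and number in 24 of 24 lysates, by 1.21-fold (CNOT7 replicate 10) to 3.89-fold (vector replicate 7), with a median of 2.03-fold. This median is −1.02 on the log2 scale. With library sizes taken outside the 7 models, the median over all 6931 tested models was −0.96, and 57.7% were lower. The sum thus fell about as much as a typical tested model, and no fall particular to the members is read from it. As a share of all counts the fall was 33.7-fold in the median, since the 7 models take most RIP counts. The members held 0.0755% (95% Wilson interval 0.0680 to 0.0838%) of the counts of the input with the lowest share and 0.207% (0.196 to 0.218%) in the highest, against 0.00204% (0.00160 to 0.00260%) and 0.00884% (0.00770 to 0.0102%) in RIP. These intervals cover counting error only.

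**Figure D2:**
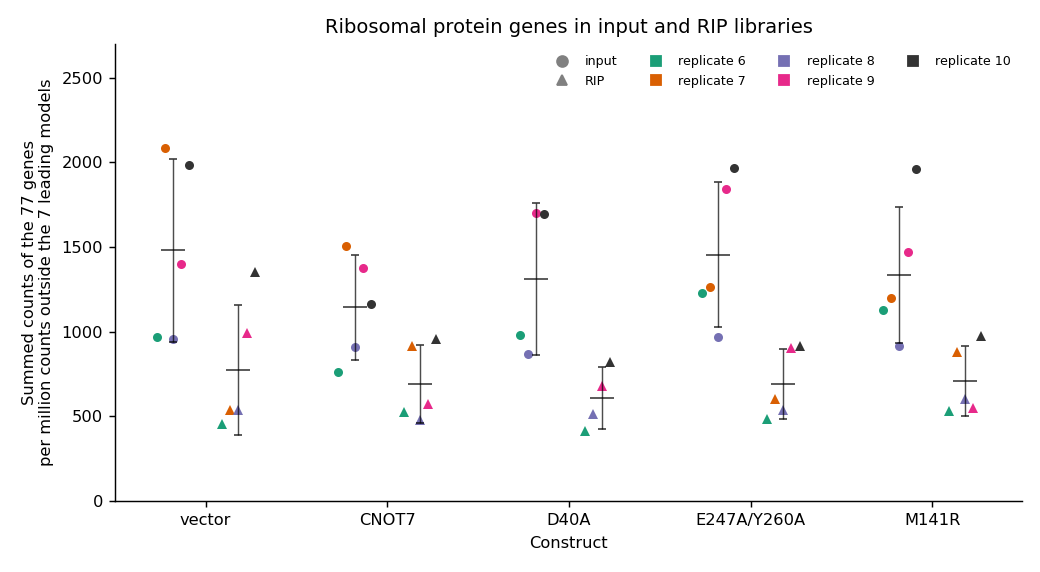
Summed counts of the 77 genes in CPM outside the 7 leading models, by construct, for inputs (circles) and RIPs (triangles), coloured by replicate number, with group mean and SD (n = 5, or 4 for D40A). Inputs range from 760 to 2088 and RIPs from 412 to 1351, and the constructs overlap within each fraction.

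Rps2 moved less than the sum. In vector cells it had 145, 342, 120, 253 and 620 counts in the inputs with numbers 6 to 10 and 32, 46, 39, 51 and 125 in the RIPs. In CNOT7 cells the inputs had 78, 437, 109, 207 and 7 counts and the RIPs 39, 71, 25, 28 and 64. The value of 7 belongs to CNOT7 input replicate 10, at 20.6 CPM or 3.94% of the median of the other inputs, whose lowest was 168. In D40A cells Rps2 had 231, 127, 312 and 402 input counts with numbers 6, 8, 9 and 10, and 37, 50, 165 and 28 in RIP. With E247A/Y260A it had 211, 279, 106, 298 and 513 counts in inputs and 44, 46, 20, 54 and 58 in RIPs, and with M141R 160, 351, 76, 251 and 499 in inputs and 39, 85, 25, 38 and 43 in RIPs. In CPM, RIP was lower in 18 of 24 lysates and higher in 6, and the ranges of both fractions overlapped in every construct.

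Rpl5 was separated between the fractions in nearly all libraries. Its input counts were 46, 54, 40, 41 and 43 in vector cells (numbers 6 to 10), and 2, 3, 3, 2 and 4 were found in the RIPs. CNOT7 inputs had 33, 67, 36, 31 and 30 counts and the RIPs 1, 4, 5, 1 and 2. D40A inputs had 29, 28, 31 and 19 (numbers 6, 8, 9 and 10) and the RIPs 1, 2, 18 and 5. With E247A/Y260A the inputs had 47, 44, 38, 29 and 43 and the RIPs 2, 4, 0, 7 and 0, and with M141R the inputs had 39, 35, 40, 35 and 39 and the RIPs 3, 3, 3, 4 and 1. All inputs lay between 40.4 and 97.1 CPM and all RIPs between 0 and 54.1, and D40A RIP replicate 10 was the only RIP above the lowest input. RIP was lower in 23 of 24 lysates.

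**Figure D3:**
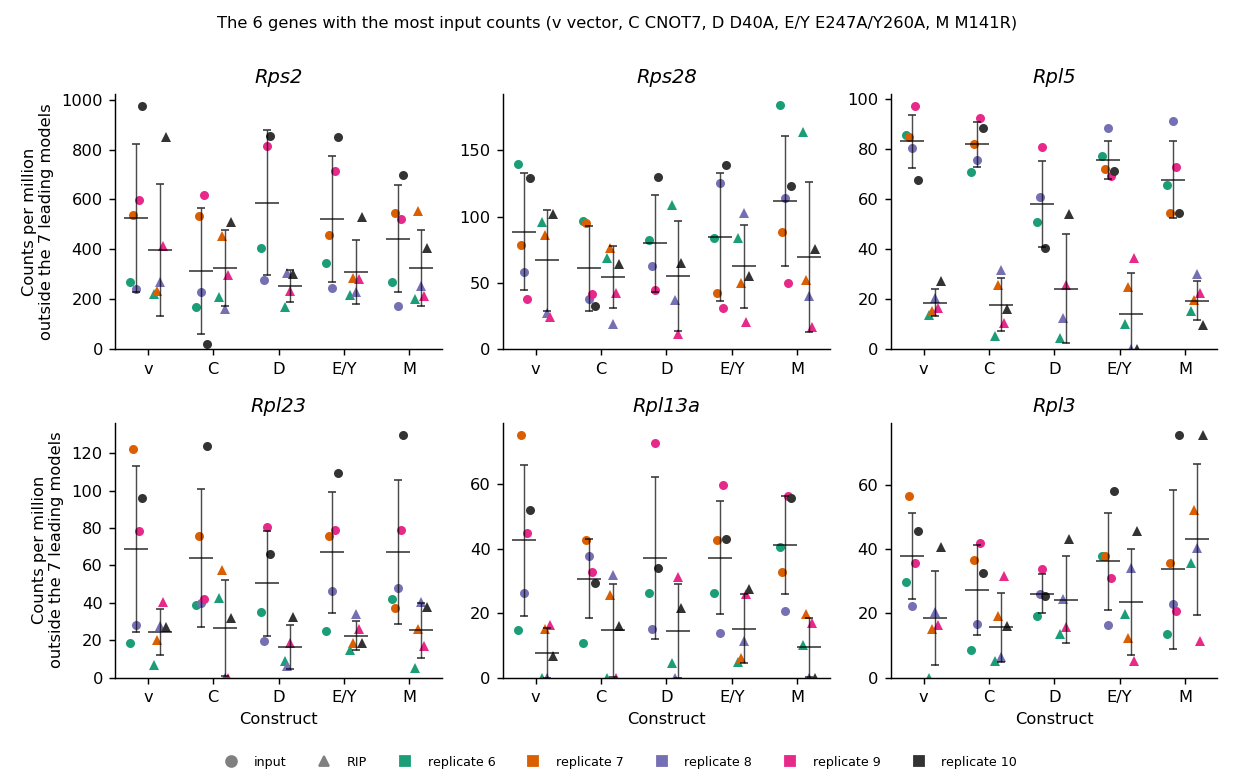
CPM outside the 7 leading models of Rps2, Rps28, Rpl5, Rpl23, Rpl13a and Rpl3 in every library, by construct, for inputs (circles) and RIPs (triangles), coloured by replicate number, with group mean and SD. Inputs of Rpl5 range from 40.4 to 97.1 and its RIPs from 0 to 54.1, whereas inputs and RIPs of Rps2 overlap.

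Genes were tested with edgeR's quasi-likelihood test, with library sizes scaled by TMM (trimmed mean of M values) and Benjamini-Hochberg adjustment over the 6931 models that passed a filter on low counts. Of the members 46 passed, by their input levels, and 31, with 1 to 74 input counts, did not. Members that passed through the fraction in which they are high had to differ, so the counts and medians below describe these 46 and give no support for a fall of the family. Over the mean of the 5 constructs, 30 of the 46 were lower in RIP at an adjusted p under 0.05 and 0 were higher (0 also at an unadjusted p under 0.05). The mean includes the vector cells, so it is not a measure of binding to CNOT7. Over all tested models 46.8% were lower and 8.40% higher. The median log2 RIP over input was −1.30 for the 46 and −0.73 for all models. Only 6 members had a mean of at least 10 counts over the 48 libraries, a filter on both fractions together. In a fit restricted to models at that level 2 of the 6 were lower, against 40.2% of 2055 models, and their median was −0.23 against −0.26 for all. By role, among the 46, 12 of 23 large subunit genes, 15 of 19 small subunit genes, 2 of 3 paralog forms and Rps19bp1 were lower, with medians of −1.16, −1.63, −1.67 and −2.44.

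Among large subunit genes, Rpl5 had the smallest p, with a log2 RIP over input of −1.70 ± 0.22 (SE), 3.26-fold lower, at an edgeR adjusted p of 1.93e-09. Rpl32 fell by 1.89 on the log2 scale (SE 0.37, adjusted p = 2.12e-05), from 208 input counts to 20 in RIP, and was lower in 23 of 24 lysates. Rpl23 was at −1.25 ± 0.27 (adjusted p = 9.50e-05), Rpl23a, which encodes a protein at the exit of the nascent chain, at −1.36 ± 0.31 (adjusted p = 0.000196), and Rpl13a, which has a known role in translational silencing, at −1.32 ± 0.32 (adjusted p = 0.000391). Rpl13a was lower in 24 of 24 lysates. Rpl3, at the peptidyl transferase centre, stood at −0.29 ± 0.25 (adjusted p = 0.328), Rpl18 at −0.48 ± 0.27 (adjusted p = 0.124) and Rpl4 at −0.53 ± 0.32 (adjusted p = 0.156). These 3 lie above the median of all models, and RIP was lower in 18, 20 and 17 of 24 lysates.

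Among small subunit genes, Rps13 was at −2.52 ± 0.73 (adjusted p = 0.00297), with 74 input counts against 4 in RIP. Rps25, needed by several viral internal ribosome entry sites, was at −1.68 ± 0.34 (adjusted p = 4.38e-05), and was lower in 24 of 24 lysates. At the other end Rps2 was at −0.34 ± 0.23 (95% interval −0.80 to 0.12, adjusted p = 0.207) and Rps28 at −0.22 ± 0.24 (−0.70 to 0.27, adjusted p = 0.452). RIP of Rps28 was lower in 19 of 24 lysates. The 3 highest ratios of all 46 were thus those of Rps28, Rpl3 and Rps2, genes among the 6 with the most input counts.

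The paralog Rpl22l1, which replaces Rpl22 in some ribosomes, fell by 2.14 on the log2 scale (SE 0.43, edgeR adjusted p = 2.92e-05) and Rps27l, a target of p53, by 1.67 (SE 0.41, adjusted p = 0.000464). Rpl7l1, a nucleolar protein, was at −0.87 ± 0.42 (adjusted p = 0.0708). Rps19bp1 fell by 2.44 (SE 0.48, adjusted p = 2.39e-05). With 12 RIP counts of Rpl22l1 and 13 of Rps19bp1 over 24 libraries, these folds rest on few counts.

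**Figure D4:**
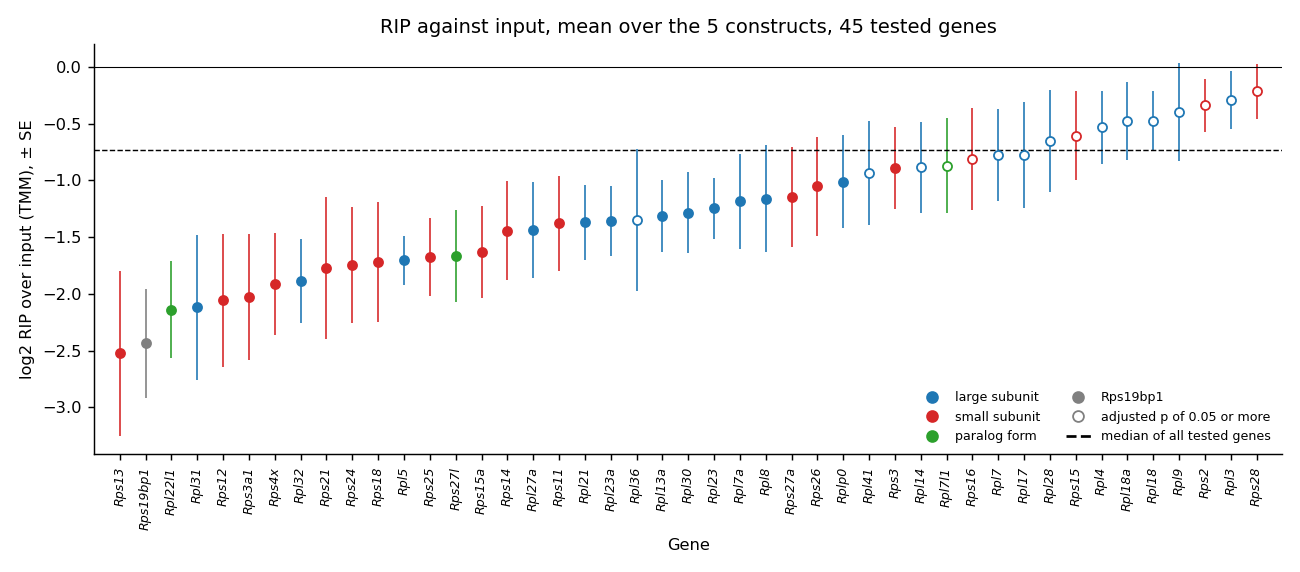
Log2 RIP over input with SE for 45 of the 46 tested members, mean over the 5 constructs, ordered by value and coloured by role, with filled circles at an adjusted p under 0.05 and the median of all tested models (−0.73) as a dashed line. All points lie below 0, up to −0.22 for Rps28, whereas with DESeq2 39 of the 46 members did.

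The members' ratios and calls changed with the method and the filter. With DESeq2 the ratios of Rps2 (0.30), Rps28 (0.38), Rpl3 (0.31), Rpl18 (0.08) and Rpl4 (0.08) were above 0, and 6 of the 46 members were lower and 0 higher, with a median of −0.64 against −0.03 for all models, of which 18.4% were lower and 1402 of 6931 were higher. Of the genes named above, Rpl5, Rps19bp1, Rps25, Rpl22l1 and Rpl32 were still lower with DESeq2 (adjusted p of 3.43e-05 to 0.0126), and Rps4x was the other member. For Rpl5, Rps25 and Rpl22l1 a model on the other strand had more input counts, and the part of counting in their ratios was not tested. The calls of Rps27l (DESeq2 adjusted p = 0.0518), Rpl23 (0.0742), Rpl23a (0.0800), Rpl13a (0.0984) and Rps13 (0.278) were lost. Without any filter 32 of 77 members were lower, against 12.7% of 26899 models. The median member had 105 input counts and the median model 17, so these shares are at unlike depth. No excess of the members is read from them. With single libraries or numbers left out, the ratio of Rps2 ranged from −0.39 to 0.34, that of Rps28 from −0.47 to 0.31 and that of Rpl3 from −0.29 to 0.28, so no direction is given for these 3. The ratio of Rpl18 also turned above 0 without all libraries with number 10, and no direction is given for it either. Without CNOT7 input replicate 10, 24 of 54 members were lower, against 30.3% of 8081 models, and without all libraries with number 10, 16 of 48, against 29.4% of 7153.

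Within single constructs few members passed. In vector cells 4 of 46 were lower (Rpl5, Rps3a1, Rpl32 and Rpl22l1), against 12.0% of all models. CNOT7 had 2 (Rpl5 and Rpl32) against 10.6%, D40A had 0 against 5.54%, E247A/Y260A had 1 (Rpl5) against 9.87%, and M141R had 2 (Rpl5 and Rpl22l1) against 12.0%. DESeq2 gave 0 in vector, D40A, E247A/Y260A and M141R, against 3.26, 2.19, 2.77 and 2.78% of all models, and 1 in CNOT7, against 3.39%. The calls in vector, E247A/Y260A and M141R were lost with it and CNOT7 went from 2 to 1, while the share over all models fell too. In D40A, at an unadjusted p under 0.05 in edgeR 7 members were lower, against 16.9% of all models. No member was higher in any construct, where 0.750, 0.707, 1.27, 1.07 and 2.84% of all models were, in the order just given. Rpl5 was lower by 3.53-fold in vector (log2 −1.82 ± 0.47, adjusted p = 0.00709), 4.02-fold in CNOT7 (−2.01 ± 0.48, adjusted p = 0.00316), 3.89-fold in E247A/Y260A (−1.96 ± 0.48, adjusted p = 0.00424) and 3.09-fold in M141R (−1.63 ± 0.48, adjusted p = 0.0159). In D40A the value was −1.11 ± 0.50, a ratio of 2.16-fold that did not pass (edgeR adjusted p = 0.157). Rps3a1 had 36 counts over the vector inputs and 0 in all 5 vector RIPs, and in CNOT7 21 and 1. With the replicate number as a block, the members lower were 8 in vector, 8 in CNOT7, 4 in D40A, 5 in E247A/Y260A and 7 in M141R, against 21.8, 20.3, 14.4, 19.1 and 20.8% of all models in the same order. With each lysate as a block they were 5, 1, 0, 3 and 4, against 16.2, 14.0, 9.61, 14.5 and 15.6%. Both blocks raised the share over all models in every construct. The members' count rose in every construct with the number block, whereas with the lysate block CNOT7 went from 2 to 1 and D40A stayed at 0. Fitted on the 2 groups alone, each construct had 0 of 11 to 16 members tested, against 1.93 to 8.94% of all models. Leaving out 1 library or number in turn gave 0 to 2 in vector, 0 to 2 in CNOT7, 0 to 1 in D40A, 0 to 5 in E247A/Y260A and 0 to 3 in M141R. The shares over all models in these left-out fits are not given here, so the ranges are not read as a result about the members.

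The second question was whether the constructs changed the members. In the inputs the sum was 1480 ± 539 CPM (SD, n = 5) in vector, 1143 ± 311 in CNOT7, 1311 ± 450 in D40A (n = 4), 1454 ± 429 in E247A/Y260A and 1334 ± 402 in M141R. In the RIPs it was 773 ± 387, 690 ± 230, 607 ± 181 (n = 4), 688 ± 207 and 708 ± 205 in the same order. The ranges of all constructs overlapped within each fraction. Read by replicate number, which the inputs share, the CNOT7 input lay below the vector input in 5 of 5 numbers, at 0.585 to 0.985 of it, and the D40A input in 2 of 4, the E247A/Y260A input in 2 of 5 and the M141R input in 3 of 5. CNOT7 input replicate 10, which stood apart and had 7 counts of Rps2, gave the lowest of the 5 CNOT7 values. Without Rps2 its sum was 1141 CPM, above the 1008 of vector input replicate 10. The order at number 10 thus rests on Rps2 alone. In RIP the sum was below vector in 3 of 5 numbers for CNOT7, 4 of 4 for D40A, 2 of 5 for E247A/Y260A and 2 of 5 for M141R. These counts were made after the values were seen, and the sum was not tested.

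Across 7 comparisons of inputs (each construct with vector, and each mutant with CNOT7), 0 of 322 tests of a member passed an adjusted p of 0.05 in edgeR, and 0 in DESeq2. Of all models 0.00% passed in 6 of these comparisons, and in M141R input against CNOT7 input 0.0289% were higher. At an unadjusted p under 0.05, 2 of 322 (0.621%) passed against 0.705% over all models: Rpl7 in D40A input (log2 −1.36 ± 0.67 against vector) and Rpl41 in M141R input (−1.44 ± 0.65). In the same 7 comparisons of RIPs 0 of 322 passed in edgeR and 0 in DESeq2, with 0.00% of all models, and 15 (4.66%) had an unadjusted p under 0.05 against 4.60% over all models.

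For construct effects on the RIP against the matched inputs, the difference in log2 RIP over input from vector was tested for each of 4 constructs. None of the 184 tests passed in edgeR or DESeq2, with 0.00% of all models, and 6 (3.26%) had an unadjusted p under 0.05, against 3.76% over all models. For Rps2 this difference was 0.23 (95% interval −1.19 to 1.65) for CNOT7, −0.93 (−2.44 to 0.58) for D40A, −0.50 (−1.93 to 0.92) for E247A/Y260A and −0.23 (−1.65 to 1.19) for M141R. Rpl5 gave −0.19 (−1.57 to 1.19), 0.71 (−0.68 to 2.10), −0.14 (−1.51 to 1.23) and 0.19 (−1.20 to 1.59) in the same order. For Rps28 the values were 0.03 (−1.48 to 1.54), −0.31 (−1.88 to 1.27), −0.17 (−1.65 to 1.32) and −0.39 (−1.86 to 1.08). The median half-width of the 95% interval over members was 1.23 on the log2 scale between inputs, 2.37 between RIPs and 2.65 for the difference of ratios.

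The members with the lowest unadjusted p show how few counts stand behind them. Rplp0, the stalk protein that carries the P1 and P2 proteins, had 9 counts in 5 E247A/Y260A RIPs, 6 in CNOT7 RIPs, 4 in D40A RIPs, 1 in M141R RIPs and 1 in vector RIPs, with 31 in the vector inputs and 24 in the E247A/Y260A inputs. Rpl31 had 4 counts in vector RIPs, 0 in CNOT7 and E247A/Y260A RIPs, 2 in D40A RIPs and 1 in M141R RIPs. Rps24 had 4 counts in vector RIPs and 0 in M141R RIPs. Rpl3 was the best counted of this set, with 29 RIP counts in M141R and 10 in CNOT7 (log2 difference 1.53 ± 0.63). Its M141R RIPs had 7, 8, 4, 2 and 8 counts and its CNOT7 RIPs 1, 3, 1, 3 and 2, and the groups overlapped.

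Within a fraction the members' levels moved with the replicate number. In CPM, the members' sum in the inputs with number 8 was 868 to 968 in all 5 constructs, and with number 10 it was 1161 to 1984, 1161 being CNOT7 input replicate 10. Number 10 also held the highest sum of every RIP group, 823 to 1351, against 412 to 532 with number 6. Rps2 followed this order, with a median of 242 CPM in inputs with number 8 and 850 with number 10, and 252 and 511 in the RIPs. Rps28 had another: its inputs with number 9 lay between 31.1 and 50.0 and those with number 6 between 82.5 and 184, and its RIPs between 11.4 and 42.3 and between 68.9 and 164. Rpl5 had input medians of 67.6 to 80.8 over the 5 numbers.

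In a test of the number within the inputs, with construct as a term, 13 of 19 tested members passed (edgeR adjusted p under 0.05), against 69.4% of all tested models. They were led by Rps19bp1 (adjusted p = 9.50e-06), Rpl23 (9.54e-06) and Rpl13a (0.000874), with Rps2 at 0.00142, whereas Rpl5 was at 0.0729 and Rpl32 at 0.229. Within the RIPs only Rps2 (5.01e-08) and Rps28 (0.000142) were tested, and both passed, against 74.1% of all models. The members' share is near that of all models. What a number marks is not given in the sources used here.

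Other genes of translation were read from lists on the same comparison of RIP with input over the 5 constructs, in which 46.8% of all tested models were lower and 8.40% higher, with a median of −0.73. Genes of these lists also passed the filter through the fraction in which they are high, so their counts are descriptions and no excess over that share is read from them. Of 5 tested elongation factors 2 were lower, Eef1b2 (log2 −1.10 ± 0.26, adjusted p = 0.000404) and Eef1a1, which brings aminoacyl-tRNA to the ribosome (−0.89 ± 0.28, adjusted p = 0.00558). Of 15 initiation factors 7 were lower and 1 higher, with Eif4a2 at −1.54 ± 0.22, Eif5 at −2.29 ± 0.32 and the higher one, Eif4g3, at 1.03 ± 0.35 (adjusted p = 0.00969). Of 12 other mRNAs known for a TOP tract, the elongation factors Eef1a1 and Eef1b2 among them, 7 were lower, led by Npm1 (−1.59 ± 0.19), Btf3 (−2.72 ± 0.35) and Naca (−1.45 ± 0.32). In the same list Pabpc1 was at 0.60 ± 0.27 (adjusted p = 0.0550), Eef2 at 0.55 ± 0.34 and Eif3h at 0.51 ± 0.51. Ribosome biogenesis genes gave 9 lower of 16, with a median of −0.77, and mitochondrial ribosomal proteins 8 lower of 11, with a median of −1.21, led by Mrps25, which alone had 5471 input counts (−1.46 ± 0.15).

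Of 9 CCR4-NOT genes and BTG partners 7 were lower, with 46.8% of all tested models lower and the same limit of the filter, and a median of −1.32, led by Cnot7 at −1.85 ± 0.23 (edgeR adjusted p = 1.58e-09). With DESeq2 the counts were 2 higher and 0 lower of 5 elongation factors, 4 and 2 of 15 initiation factors, 2 and 2 of 12 other TOP mRNAs, 1 and 3 of 16 biogenesis genes, 0 and 5 of 11 mitochondrial ribosomal proteins and 0 and 3 of 9 CCR4-NOT genes, where 20.2% of all tested models were higher and 18.4% lower. DESeq2 differs from the main fit in its scaling, its model of the spread and its test. Fau and Gnb2l1, ribosomal proteins whose symbols fall outside the pattern, stood at −0.61 ± 0.47 and −0.11 ± 0.34, and neither passed. Among 4 tested epithelial markers, with a median of 0.03, Cdh1 had the lowest adjusted p (log2 0.56 ± 0.28, edgeR adjusted p = 0.0810), and with DESeq2 2 of the 4 were higher, against 20.2% of all models. Members with such a pyrimidine run anywhere in the first 50 transcribed bases had a median of −1.32 (17 tested), and those without one −1.25 (15 tested).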

How the data were processed

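RIP-seq and input libraries of 4T1 cells (48 libraries in 10 groups) were read from 1 table of counts per gene model, which the authors deposited as raw whole-number counts without normalisation. The submitters' processing notes name BWA, HTSeq and mm9. Versions, annotation and the strand setting of the counting are not given in the sources used here. The kit kept RNA strand, so a setting against the kit would move reads between a gene and its opposite model, and reads shared with pseudogenes can be lost. GENCODE and RefSeq tables on GRCm38 were used only for lengths, neighbours and sequences, since their build differs. The table has 0 unused columns of per-sample values.

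Groups came from the sample titles, and members and gene lists were chosen with earlier results of these data known. Here all 48 libraries were fitted together with edgeR 4.0.16 (R 4.3.3, limma 3.58.1; quasi-likelihood test, TMM, filterByExpr, minimum count 10, Benjamini-Hochberg adjustment, threshold 0.05), after tests on simulated data, with DESeq2 1.42.0, other scalings and filters, blocks and left-out libraries as alternatives. Depth was 337861 to 826768 counts in inputs and 1305627 to 10719137 in RIPs. Wilson intervals (95%) cover counting error only. Named genes were the 8 members with the highest mean in each fraction, up to 6 per direction and comparison past the threshold, the 3 highest and 3 lowest ratios, paralog forms, up to 3 per other list, Cnot7 and opposite models. Others named for few counts or a low unadjusted p were chosen after their values were seen. Values of 1 member are not reported here.

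According to the methods, input and RIP were taken from the same lysate. The methods give no numbers, so the match of RIP and input by construct and number is inferred from the sample titles. Deviations of same-numbered samples from their group means correlated above 0.1 for every pair in 7 of 7 comparisons of inputs (lowest 0.152), in 0 of 7 of RIPs and in 0 of 5 of RIP with input (lowest 0.00917). No replicates were duplicates: the lowest chi-square per degree of freedom over 92 replicate pairs was 4.98. A test of the replicate number, the sum without Rps2, the sum without each number and the DESeq2 counts of the other lists were added after seeing the data.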

Additional observations from a re-analysis of the deposited data

Results flagged for a closer look

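In 4 of 100 tests of a group's extreme library, a library lay farther from the others of its group than Dixon's 95% limit, and chance gives about 1 in 20. All 4 have number 10. The members without Rps2 summed to 567 CPM outside the 7 leading models in M141R RIP replicate 10, against 327 to 352 in the other 4 libraries. Rps2 was at 531 in E247A/Y260A RIP replicate 10, against 216 to 287. Rpl18 was at 70.7 in CNOT7 input replicate 10, the library that stood apart, against 17.9 to 30.1, and at 36.4 in E247A/Y260A input replicate 10, against 20.9 to 23.0.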

How the results depend on the processing

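The counts below are members lower in RIP at an adjusted p under 0.05, and no setting gave a member that was higher. Over the mean of the constructs, 30 of 46 (46.8% of all models) became 6 of 46 with DESeq2 (18.4%), 46 of 46 with library size only (99.7%), 39 of 46 with library size without the 7 leading models (57.7%), 32 of 77 without a filter (12.7%, at unlike depth), and 2 of 6 with a mean of at least 10 counts (40.2%). When a library or number was left out the count was 16 to 32. The lowest, 16 of 48, came without number 10 (29.4%), and without CNOT7 input replicate 10 it was 24 of 54 (30.3%). The shares in the other left-out fits are not given here. With DESeq2 the constructs vector, CNOT7, D40A, E247A/Y260A and M141R had 0, 1, 0, 0 and 0 (2.19 to 3.39% of all models), and with library size only 46 each (96.3 to 99.2%), a scaling that carries the share of the 7 leading models. Without the leading models in the library size, vector had 10, D40A 1, E247A/Y260A 4 and M141R 5 (11.7 to 24.4%). Without a filter vector had 0, CNOT7 0 and M141R 1 (0.874 to 1.81%). With a mean of at least 10 counts vector had 0, CNOT7 1, E247A/Y260A 0 and M141R 0 (10.1 to 12.5%), and on the groups compared alone 0 each (1.93 to 8.94%). With a replicate block (number) they had 8, 8, 4, 5 and 7 (14.4 to 21.8%), and with the pairing by lysate as a replicate block CNOT7 had 1, E247A/Y260A 3 and M141R 4 (14.0 to 15.6%). Left-out libraries gave 0 to 2 in vector, 0 to 2 in CNOT7, 0 to 1 in D40A, 0 to 5 in E247A/Y260A and 0 to 3 in M141R, again without the shares over all models in the same fits. As a share of all counts, the input sum over the RIP sum was 33.7, and without Rps2 it was 2.35 in CPM outside the 7 leading models, against 2.03 with it.

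Some log2 ratios turned above 0. With DESeq2 Rpl18 was at 0.078, Rpl3 at 0.31, Rpl4 at 0.084, Rps2 at 0.30 and Rps28 at 0.38, and with a mean of at least 10 counts Rpl3 was at 0.27, Rps2 at 0.25 and Rps28 at 0.34. The median of all models moved from −0.73 to −0.03 and −0.26 in these settings. With a library or number left out, Rps2 ranged from −0.39 to 0.34, Rps28 from −0.47 to 0.31, Rpl3 from −0.29 to 0.28 and Rpl18 from −0.66 to 0.12, which was reached without replicate 10 (all libraries of that number). The 18 comparisons between constructs gave 0 members in every setting, the replicate block included. Over the mean of the constructs the block by number gave 33 of 46, against 50.6% of all models, and that by lysate 30 of 46, against 47.8%. In RIP 62.1% of the members' values were 0.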
